A study of Homo sapiens with 12 samples.

Results

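Open regions in gene deserts were followed in 3 human acute myeloid leukaemia lines treated with a menin inhibitor. A region was a run of overlapping ATAC-seq peaks (1 bp or more) merged over all 12 peak lists on chromosomes 1 to 22 of hg38. A desert region lay more than 250 kb from every start site of protein-coding and lncRNA genes, lay outside protein-coding gene bodies and held a peak in 2 or more of the lists. By this rule 1275 of the 146251 regions with a peak in 2 or more lists were desert regions, which is 0.872%. A further 3259 regions at such positions had a peak in 1 list and were left out.

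ATAC-seq marks DNA that the transposase Tn5 can reach, so a peak stands for an accessible stretch such as an active promoter or enhancer. Gene deserts are long intervals without genes. Many flank genes that act in development or at synapses, and some are known to hold enhancers that act on a gene far away, while others have no known function. In blood cells distant enhancers often carry lineage factors such as PU.1, RUNX1 or CEBP proteins.

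A rearranged MLL1 (KMT2A), whose fusion protein needs menin to bind chromatin, is present in MOLM13 and MV4-11, and a mutant NPM1 in OCI-AML3. Each line had 2 control libraries and 2 libraries from cells given 500 nM VTP50469 for 16 h, a menin inhibitor that the study calls SNDX-50469, and all cells were cryopreserved before the assay. MV4-11 was grown in a different medium from the other lines, so line and medium cannot be told apart. The labels do not say whether the 2 libraries of a group came from separate cultures, so p-values measure the spread between libraries, which may be technical. A library held 67424 to 141695 peaks on these chromosomes, most in MV4-11 (112922 to 141695). The fewest reads over the summit of a peak, as recovered from its fold and p, were 3. A region without a peak in a library was not called at that library's depth and need not be closed. Promoters of 8 myeloid marker genes had a peak in both controls for 5 genes in MOLM13, for 7 in MV4-11 and for 4 in OCI-AML3. Of 6 T cell markers 1 (CD8A) was open in each line, of 5 B cell markers 1, 3 and 0, and of 5 erythroid markers 1, 1 and 0.

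Desert regions were short and often had close neighbours. Their median width was 276 bp, from 76 to 1724 bp. The nearest start site was a median of 327 kb away and the nearest start site of a protein-coding gene a median of 579 kb away. In all, 457 regions lay 250 to 300 kb from a start site, 483 at 300 to 400 kb, 187 at 400 to 500 kb and 148 beyond 500 kb. Of the 1275 regions 1176 overlapped no annotated gene, 95 lay in the body of a lncRNA gene and 4 overlapped a pseudogene. Among regions of the same stretch of desert, the gap to the next region was a median of 16.8 kb, and 39.5% of 1053 gaps were under 10 kb. The desert region nearest the limit lay 250.06 kb from LINC01249, between LOC105373397 and SOX11, at chr2:4405915-4406163, and had a peak in the 4 MV4-11 libraries and 1 MOLM13 library. The region just outside lay 249.98 kb from LOC105375710 and had a peak in 2 libraries.

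The density of open regions fell with distance from start sites. Leaving out stretches of over 3 Mb, intergenic space held 50.9 regions per Mb at 5 to 50 kb from a start site, 35.1 at 50 to 100 kb, 26.5 at 100 to 250 kb, 17.7 at 250 to 500 kb and 6.33 beyond 500 kb. It fell from class to class in each line. In MV4-11 a library had 33.9 ± 2.04 called regions per Mb at 5 to 50 kb (SD, n = 4) and 10.0 ± 0.975 at 250 to 500 kb. At 250 to 500 kb MOLM13 had 5.75 ± 0.798 and OCI-AML3 had 5.26 ± 0.954 per Mb, which is within the spread of the libraries, while at 5 to 50 kb they had 22.8 ± 2.66 and 16.1 ± 2.13. Regions beyond 250 kb were also seen in fewer libraries. The share with a peak in all 12 was 10.9% at 5 to 50 kb, 5.17% at 250 to 500 kb and 5.47% beyond 500 kb, and the share with a peak in libraries of 1 line was 25.2%, 35.3% and 36.7%. These shares describe the regions and were not tested.

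**Figure D1:**
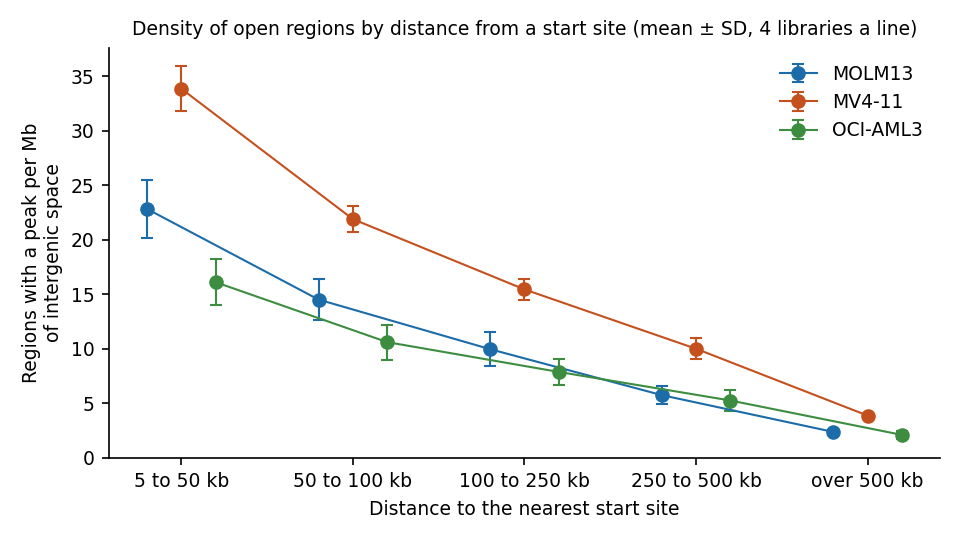
Regions with a peak per Mb of intergenic space (y axis) in 5 classes of distance to the nearest start site (x axis), as mean ± SD over the 4 libraries of each line. MV4-11 had the highest mean in each class, and the means of MOLM13 and OCI-AML3 came together beyond 250 kb.

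The 1275 regions fell into 222 of 335 stretches of desert, and 113 stretches held none. Of these, 44 held 10 or more regions, and stretches are named here by the protein-coding genes that flank them. Several stretches can lie between the same genes, and a count given for a named stretch covers that stretch alone. All stretches between AGA and TENM3 held 41 regions, and those between H3Y1 and CDH18 held 27. Those between KCNV1 and CSMD3 held 35, and those between MAT2B and TENM2 also 35. A total of 18 stretches were longer than 3 Mb, the gaps around centromeres and other blocks with few genes, and these held 25 regions in all. Stretches up to 3 Mb held 15.0 regions per Mb, against 43.0 per Mb in near intergenic space, that is, outside protein-coding genes and over 5 kb but at most 250 kb from a start site.

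Each line had desert regions in every library, and MV4-11 had the most. MOLM13 had 358 and 401 in the controls and 440 and 489 after treatment. MV4-11 had 737 and 710 in the controls and 653 and 816 after treatment. OCI-AML3 had 344 and 486 in the controls and 378 and 346 after treatment. The 4 MV4-11 libraries were above the other 8, and they also had the most peaks of any kind.

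As a share of a library's peaks, desert regions took 0.514 ± 0.0174% for MOLM13, 0.617 ± 0.0243% for MV4-11 and 0.546 ± 0.0127% for OCI-AML3 (SD, n = 4 each). The single libraries ranged from 0.491 to 0.530% in MOLM13, from 0.583 to 0.637% in MV4-11 and from 0.534 to 0.563% in OCI-AML3, with no overlap between lines. The difference was −0.102 percentage points for MOLM13 minus MV4-11, 0.0708 for MV4-11 minus OCI-AML3 and −0.0315 for MOLM13 minus OCI-AML3, each with p = 0.0286 before and after adjustment over the 3 pairs (exact permutation test, two-sided), the smallest p that 4 against 4 libraries can give. The rule asks for a peak in 2 lists, and MV4-11 libraries held the most peaks and shared more of their desert regions within a group (62.3 and 71.6%) than the other lines did (42.8 to 50.3%), so these shares and this test are not independent of the rule. When every region at a desert position counted, a peak in 1 list included, a setting chosen after seeing the data, the order turned. The share was then 0.731 ± 0.0780% for MOLM13, 0.762 ± 0.0837% for MV4-11 and 1.09 ± 0.137% for OCI-AML3, and the OCI-AML3 libraries (0.961 to 1.21%) were above all others (0.651 to 0.876%). In an exact permutation test, two-sided and adjusted over the 3 pairs, MV4-11 minus OCI-AML3 was −0.330 percentage points (adjusted p = 0.0429), MOLM13 minus OCI-AML3 −0.360 (adjusted p = 0.0429) and MOLM13 minus MV4-11 −0.0304 (adjusted p = 0.629). Of these OCI-AML3 peaks 25.0 to 40.1% were called again in the other library of the group. The order of the lines thus depended on the number of lists asked for.

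VTP50469 did not move the share beyond the spread of the libraries. The share was 0.512 and 0.491% in MOLM13 controls and 0.530 and 0.525% in treated cells. For MV4-11 it was 0.637 and 0.583% in controls, with 0.632 and 0.613% after treatment. For OCI-AML3 it was 0.534 and 0.563% in controls, with 0.539 and 0.547% after treatment. Treated minus control, averaged over lines, was 0.0111 percentage points (p = 0.343, exact permutation test within lines, two-sided). The treated and control libraries overlapped in MV4-11 and OCI-AML3 and did not in MOLM13, where 2 against 2 libraries cannot give a p below 0.333.

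**Figure D2:**
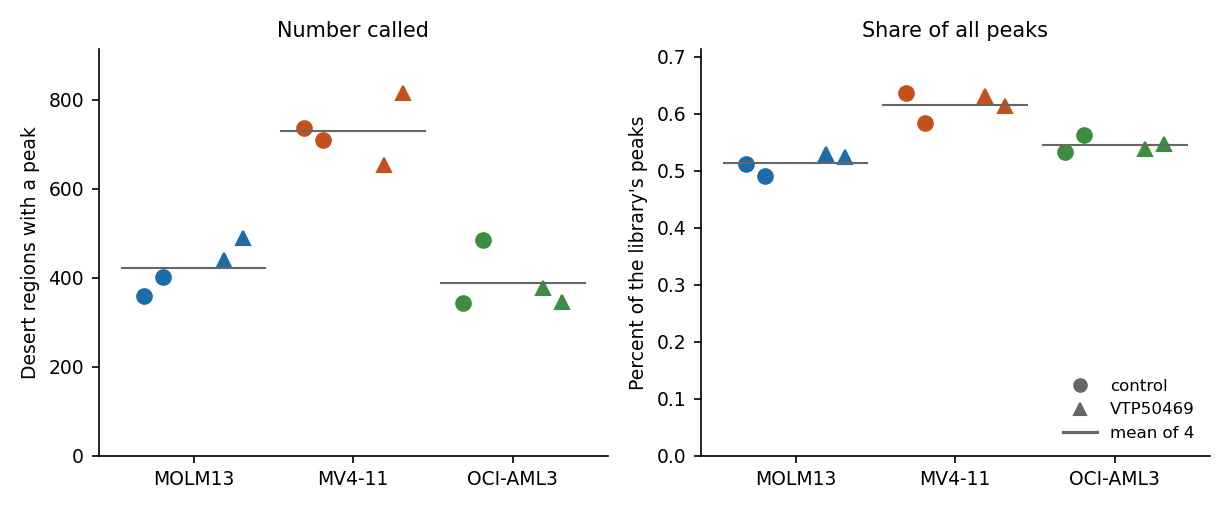
Number of desert regions with a peak (left) and percent of the library's peaks that fell in desert regions (right) for each of the 12 libraries by line, with circles for control, triangles for VTP50469 and a bar at the mean of the 4 libraries of a line. MV4-11 libraries sit between 0.583 and 0.637%, above the 0.491 to 0.563% of the other lines.

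Desert peaks were weaker and narrower than near intergenic peaks of the same library, of which there were 52944 regions. The median number of reads over the summit, recovered from the fold and p of each peak, was 7 to 11 over the libraries in deserts and 9 to 13 in near intergenic space. It was lower in deserts in 12 of 12 libraries, with a mean difference of −1.67 ± 0.492 reads (adjusted p = 0.00122, exact sign permutation over 12 libraries, two-sided, here and for the measures that follow). The median width was lower in 12 of 12 libraries, with a mean difference of −9.21 ± 5.15 bp (adjusted p = 0.00122, exact permutation). The median −log10 q was lower in 9 and higher in 2, with a mean difference of −0.492 ± 0.418 (adjusted p = 0.00651, exact permutation). A desert peak was called again in the other library of its group less often, with a mean difference of −3.77 percentage points (adjusted p = 0.00854, exact permutation), but a rule that asks for 2 lists takes part in this measure. It no longer passed with 3 lists (−1.53 points) or with 60000 peaks a library (−1.84). Over all positions, also those with a peak in 1 list, a setting chosen after seeing the data, the share was 25.0 to 74.2% for desert peaks and 40.4 to 76.7% for near intergenic ones, with a mean difference of −10.6 points (adjusted p = 0.00183, exact permutation). Reads, width and −log10 q also differed in the same direction and passed over all these positions. Fold enrichment over the local background, 5.17 to 6.61 against 5.33 to 6.54 at the median, differed by −0.136 ± 0.238 and did not pass (adjusted p = 0.0728, exact permutation). The local background that goes into the fold was itself lower in deserts, with medians of 0.516 to 0.756 reads against 0.672 to 0.979, and its part in these differences was not tested. For regions beyond 500 kb, the differences in −log10 q (0.267) and in the share called again (2.18 points) had the other sign and neither passed.

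Of the 1275 desert regions 67 had a peak in all 12 libraries, or 5.25%, against 15.6% of all regions. Most regions were seen in few libraries, with 413 in exactly 2. Regions with a peak in each line numbered 352 (27.6%, against 35.7% of near intergenic regions), and those in both MLL1-rearranged lines and in no OCI-AML3 library 235 (18.4%, against 25.0%). There were 151 in MV4-11 and OCI-AML3 but not MOLM13 (11.8%, against 8.36%) and 89 in MOLM13 and OCI-AML3 but not MV4-11 (6.98%, against 4.66%). A peak in libraries of 1 line alone was found for 56 MOLM13 regions (4.39%, against 3.64%), 266 of MV4-11 (20.9%, against 18.2%) and 126 of OCI-AML3 (9.88%, against 4.48%). Regions open in all 12 were wide, with a median of 640 bp against 169 bp for those in 2 libraries, though a merged region can only widen with each library that adds a peak. Their median fold enrichment had a median of 8.94, close to the 8.79 of 5327 near intergenic regions open in all 12 and below the 10.5 of 10718 promoter regions, values that were not tested. Their summits lay within a median range of 134 bp over the 12 libraries, against 137 bp in near intergenic and 194 bp in promoter regions.

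The strongest desert region lay between EPHA3, an ephrin receptor gene, and PROS1, the gene of the anticoagulant protein S, at chr3:93470362-93470788. Its fold enrichment was 34.2 and 32.5 in MOLM13 controls and 32.7 and 33.1 in treated cells, in MV4-11 it was 32.1 and 32.6 and then 38.2 and 31.0, and OCI-AML3 had 39.0 and 32.4 and then 32.3 and 38.4. All 12 values fell between 31.0 and 39.0 and the lines overlapped. The stretch between these genes spans the centromere of chromosome 3, where repeated sequence makes the placement of reads uncertain. The part of this in the fold was not tested.

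The next strongest region lay 255 kb from CSMD3, a gene of a large membrane protein, on chromosome 8 toward TRPS1, a GATA-type repressor gene. Its fold was 16.8 and 20.5 in MOLM13 controls and 16.0 and 22.7 in treated cells. MV4-11 had 21.5 and 21.0 in controls, 24.5 and 20.7 in treated cells. OCI-AML3 had 11.7 and 11.9, then 10.6 and 8.98, below every library of the other lines.

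The other 6 of the 8 strongest lay between SEL1L and LOC124903401 (chr14:83632282-83632906, median fold 16.6), MAT2B and TENM2 (chr5:165559562-165560175, 15.8), ZNF385D and UBE2E2 (chr3:22713569-22714244, 15.7), AGA and TENM3 (chr4:179836270-179837011, 15.1), FAM98A and CRIM1 (chr2:36059728-36060374, 14.9) and UTRN and EPM2A (chr6:145148084-145148908, 14.1). SEL1L acts in the disposal of misfolded proteins, MAT2B in the making of S-adenosylmethionine, UTRN encodes utrophin and EPM2A the glycogen phosphatase laforin. TENM2 and TENM3 are teneurins, membrane proteins of neuronal contacts. The region by CRIM1 had the tightest summits, within 23 bp over the 12 libraries, and folds from 9.07 to 20.2. The region in the UTRN to EPM2A stretch lay 565 kb from UTRN and 587 kb from EPM2A, with folds from 7.75 to 16.5.

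**Figure D3:**
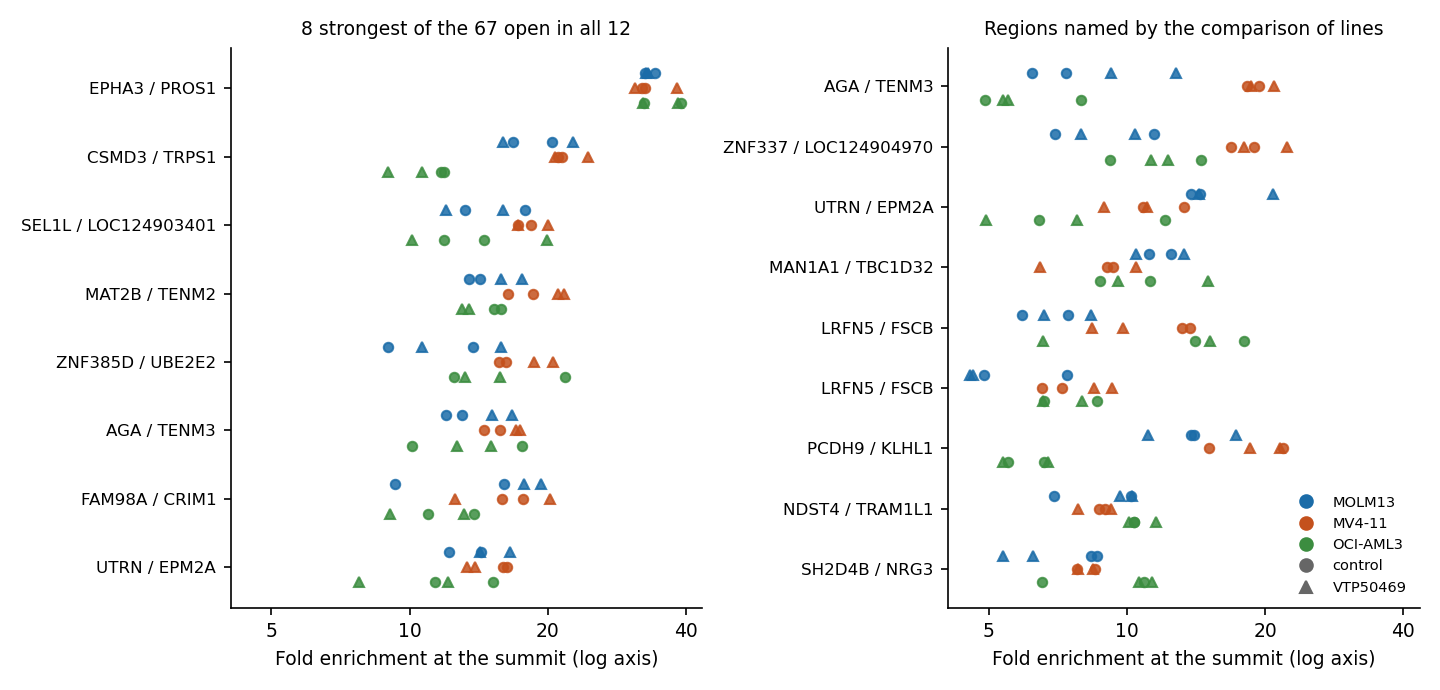
Fold enrichment at the summit (log axis) in each library for the 8 strongest of the 67 desert regions open in all 12 libraries (left) and for the other regions named by the comparison of lines (right), each labelled by its flanking protein-coding genes, with colours for lines, circles for control and triangles for VTP50469. The top EPHA3 / PROS1 region sits between 31.0 and 39.0 in all lines, whereas the AGA / TENM3 region at the top right is at 18.3 to 20.9 in MV4-11 and at or under 12.8 elsewhere.

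Between lines, the strength of some of these 67 regions differed. Strength was the fold of the strongest peak, ranked within its library and turned into a normal score, and limma was fitted on all 22845 regions open in 12 libraries with Benjamini-Hochberg adjustment. For MOLM13 minus MV4-11, 8 of 67 desert regions passed (2 higher, 6 lower), against 4.49% of all regions. For MOLM13 minus OCI-AML3, 7 passed (4 higher, 3 lower), against 8.96%. For MV4-11 minus OCI-AML3, 13 passed (9 higher, 4 lower), against 13.8%. These counts are 11.9, 10.4 and 19.4% of the 67 desert regions. Of 5327 near intergenic regions 381, 668 and 932 passed for the 3 pairs in the same order. In all 18 of the 67 passed in 1 or more pairs, a count for which the share over all regions was not taken. The median difference in normal score of the desert regions was −0.30 for MOLM13 minus MV4-11, with 0.07 over all regions, and 0.27 for MV4-11 minus OCI-AML3, with −0.06 over all regions. On the log2 scale of recovered summit reads, the counts were 12 higher and 9 lower, 10 higher and 16 lower, and 5 higher and 12 lower for the 3 pairs in the same order. Over all regions on that scale 20.1, 29.5 and 26.0% passed, with 2946 higher and 1653 lower, 3384 and 3351, and 2268 and 3660. The median difference of the desert regions in recovered reads was −0.007, −0.14 and −0.19 for the 3 pairs. Over all regions these medians were 0.06, 0.01 and −0.05. For MV4-11 minus OCI-AML3 the desert median thus had the other sign from that in normal score. On the log2 of the fold the desert medians were −0.16, −0.02 and 0.05, with 0.05, −0.02 and −0.07 over all regions. With 1 library left in each group, the median difference in normal score was taken without replicate 1 and then without replicate 2. For the desert regions it was −0.23 and −0.28, 0.11 and −0.05, and 0.27 and 0.27 for the 3 pairs. Over all regions it was 0.05 and 0.07, −0.006 and 0.004, and −0.06 and −0.06.

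The region with the lowest p was 873 bp wide, at chr4:179398477-179399349, 581 kb from the nearest start site, between AGA, a lysosomal enzyme gene, and TENM3. Its fold was 6.22 and 7.34 in MOLM13 controls and 9.22 and 12.8 in treated cells. MV4-11 had 18.3 and 19.4 in controls and 20.9 and 18.7 in treated cells, and OCI-AML3 had 4.90 and 7.92, then 5.35 and 5.51. MV4-11 was above every library of the other lines, which overlapped each other. In limma the difference in normal score was 3.05 ± 0.29 (SE) for MV4-11 minus OCI-AML3 (adjusted p = 7.97e-05) and −2.19 ± 0.29 for MOLM13 minus MV4-11 (adjusted p = 0.000832).

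A region 285 kb from the nearest start site between PCDH9, a protocadherin gene, and KLHL1, at chr13:68588279-68589139, was strong in both MLL1-rearranged lines. Its fold was 14 ± 2.52 for MOLM13, 19.3 ± 3.15 for MV4-11 and 6.05 ± 0.720 for OCI-AML3 (SD, n = 4 each). The lowest MOLM13 value, 11.1, was above the highest OCI-AML3 value, 6.74. The limma difference was 2.17 ± 0.37 for MOLM13 minus OCI-AML3 (adjusted p = 0.00285) and 2.89 ± 0.37 for MV4-11 minus OCI-AML3 (adjusted p = 0.000445). Chromosome 13 held 3.45 to 3.59% of all peaks in MOLM13, 2.87 to 2.94% in MV4-11 and 2.02 to 2.27% in OCI-AML3. The part of this in the differences was not tested.

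The CSMD3 region of chromosome 8 described above differed in the same way, by 1.86 ± 0.31 in normal score for MOLM13 minus OCI-AML3 (adjusted p = 0.00247 in limma). Chromosome 8 held 8.28 to 8.48% of all peaks in MOLM13, 6.47 to 6.80% in MV4-11 and 6.95 to 7.46% in OCI-AML3. The part of this in the difference was not tested.

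A region of the UTRN to EPM2A stretch, at chr6:145015829-145016414, was highest in MOLM13, with folds of 13.8 to 20.7 against 8.92 to 13.3 in MV4-11 and 4.93 to 12.1 in OCI-AML3. MOLM13 minus MV4-11 was 1.68 ± 0.38 in normal score (adjusted p = 0.0208, limma). Chromosome 6 held 8.08 to 8.22% of all peaks in MOLM13, 6.27 to 6.36% in MV4-11 and 7.25 to 7.38% in OCI-AML3. The part of this in the difference was not tested. The region between ZNF337 and LOC124904970, at chr20:28602437-28603038, overlapped the pseudogene FRG1CP near the centromere. It had a fold of 19.0 ± 2.38 in MV4-11, 9.18 ± 2.09 in MOLM13 and 11.8 ± 2.21 in OCI-AML3, and MOLM13 minus MV4-11 was −1.96 ± 0.37 (adjusted p = 0.00731, limma). Both regions named as lowest in MOLM13 against OCI-AML3 lay between LRFN5, a synaptic adhesion gene, and FSCB. The first, at chr14:42523635-42524066, had folds of 5.89 to 8.36 in MOLM13 and 6.54 to 18.0 in OCI-AML3, which overlapped (difference −1.93 ± 0.43, adjusted p = 0.0130, limma). Without replicate 1 this difference was −3.09 and without replicate 2 it was −0.77. These fits leave 1 library in each group, so only differences are given. In the same order, MOLM13 minus MV4-11 was 2.20 and 1.16 for the UTRN to EPM2A region and −2.31 and −1.62 for the ZNF337 region. The AGA to TENM3 region with the lowest p had −1.92 and −2.46 for that pair. For MOLM13 minus OCI-AML3 the CSMD3 region had 2.44 and 1.28 and the PCDH9 region 2.14 and 2.21. By p, the first of the regions higher in OCI-AML3 than in MV4-11 were one between NDST4 and TRAM1L1 at chr4:115781433-115782364 (10.6 ± 0.655 against 8.66 ± 0.608, adjusted p = 0.0134, limma) and one between SH2D4B and NRG3 at chr10:81018898-81019415 (9.83 ± 2.22 against 8.14 ± 0.387, adjusted p = 0.0228, limma). The second did not pass on recovered summit reads (adjusted p = 0.0731, limma). NRG3 encodes a neuregulin, a ligand of an ErbB receptor.

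Some desert regions had a peak in all 4 libraries of 1 line and in none of the other 8. There were 5 in MOLM13 (0.392% of desert regions, against 0.279% of all regions), 101 in MV4-11 (7.92%, against 4.47%) and 11 in OCI-AML3 (0.863%, against 0.554%). MV4-11 libraries held the most peaks. At 60000 peaks a library the desert shares were 0.724, 4.49 and 2.89% of 691 regions, against 0.639, 2.27 and 1.57% of all regions for MOLM13, MV4-11 and OCI-AML3.

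Ranked by the lowest −log10 q of the 4 libraries, the first of the MV4-11 regions lay 499 kb from the nearest start site, between IGFBP7, which encodes a secreted growth factor binding protein, and LOC124900173, at chr4:59487107-59487692. Its fold was 14.9 and 10.8 in controls and 15.3 and 11.7 in treated cells, and its summits lay within 11 bp. The next were between GBE1, the glycogen branching enzyme gene, and CADM2, an adhesion gene, at chr3:84601335-84601696 (folds 9.82 to 13.5), and between MAN2A1, a Golgi mannosidase gene, and TMEM232 at chr5:110288547-110289196 (8.67 to 14.7). The lowest of these folds, 8.67, was near the median of 8.94 of the regions open in all 12 libraries.

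The named regions of the other lines were the first 3 of 5 in MOLM13 and of 11 in OCI-AML3, against 101 in MV4-11. Some of their folds overlapped those of the named MV4-11 regions. The choice was made from unequal numbers, so these folds do not compare the lines. In MOLM13 the first was 301 kb from DACH1, a developmental transcription factor gene, at chr13:72168634-72168879, with folds of 5.22 and 9.67 in controls and 6.12 and 5.22 in treated cells. The others lay 423 kb from CSMD3 on chromosome 8 (4.78 to 7.58) and between ADGRL3, a latrophilin gene, and TECRL at chr4:62670663-62670937 (4.88 to 6.60). In OCI-AML3 the first lay between SFRP2, a secreted Wnt modulator gene, and DCHS2 at chr4:154184362-154184605, with folds of 5.61 and 6.28 in controls and 6.14 and 6.0 in treated cells. The others lay between LOC100996696 and TAFA2 at chr12:61138119-61138629 (5.95 to 9.79) and between DHFR2 and EPHA6 at chr3:96319241-96319485 (5.51 to 7.26).

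With VTP50469, a desert region was counted as lost when both control libraries of a line and neither treated library had a peak, and as gained in the reverse case. These are counts without a test, and in bulk samples fewer open cells and less signal per cell cannot be told apart. MOLM13 had 14 lost (1.1%, against 1.37% of all regions) and 47 gained (3.69%, against 3.47%). MV4-11 had 37 lost (2.90%, against 3.67%) and 38 gained (2.98%, against 2.55%). OCI-AML3 had 56 lost (4.39%, against 2.52%) and 25 gained (1.96%, against 1.30%). The libraries also differed in their number of peaks. MOLM13 had 77753 and 90270 peaks in controls and 93598 and 100831 after treatment. MV4-11 had 122425 and 128880 in controls and 112922 and 141695 after treatment. OCI-AML3 had 69119 and 92554 in controls and 75685 and 67424 after treatment. The part of this in the counts of lost and gained regions was not tested. At 60000 peaks a library, with 691 desert regions, OCI-AML3 had 26 lost (3.76%, against 2.88% of all regions) and 23 gained (3.33%, against 2.05%), MOLM13 18 lost (2.60%, against 2.18%) and 28 gained (4.05%, against 3.01%), and MV4-11 29 lost (4.20%, against 2.93%) and 16 gained (2.32%, against 2.65%).

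**Figure D4:**
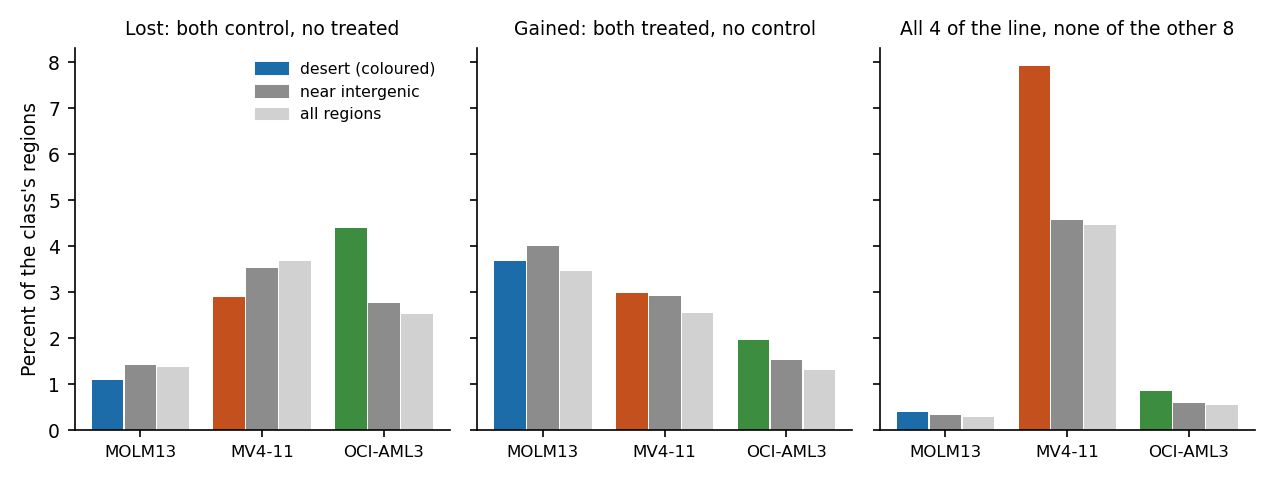
Percent of desert regions (coloured bars), near intergenic regions (dark grey) and all regions (light grey) that were lost, gained, or called in all 4 libraries of a line and none of the other 8 (y axis), for each line (x axis). The widest gap is for MV4-11 in the right panel, 7.92% of desert regions against 4.47% of all regions.

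Among the lost regions, ranked by the lower −log10 q of the 2 libraries, the first in MV4-11 lay between NXPH1, a neurexophilin gene, and COXFA4 at chr7:9149436-9149967. It had folds of 8.86 and 10.9 in the controls and no peak in treated cells, and it was also called in 3 OCI-AML3 libraries (5.28 to 7.96). In OCI-AML3 a region between RASGEF1B and HNRNPD at chr4:81913334-81913643 had 6.04 and 8.49 in the controls and no peak in treated cells. It had peaks in all 4 MOLM13 libraries (3.49 to 11.3) and in 3 of 4 MV4-11 libraries. A region of 1170 bp between B3GALT2 and KCNT2 at chr1:193880286-193881455 had 5.71 and 5.86 in OCI-AML3 controls and was called in all 8 libraries of the other lines. In MOLM13 the first, between PTH2R and MAP2 at chr2:209114826-209115149, had 5.58 and 6.07 in the controls, and the second, between LRFN5 and FSCB at chr14:43894636-43894789, had 6.27 and 5.39.

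Among the gained regions, the first in MOLM13 lay between KLHL1 and DACH1 at chr13:70473968-70474208, with folds of 11.7 and 8.58 in treated cells and no peak in controls. It had a peak in 1 treated library of each other line as well (8.40 in MV4-11, 5.95 in OCI-AML3) and in no control library of any line. The second, between DNAJB9, an endoplasmic reticulum chaperone gene, and LRRN3 at chr7:109843239-109843781, had 6.49 and 6.60 and was open in all 4 MV4-11 libraries (6.75 to 14). In MV4-11 the first lay between CDH19 and DSEL on chromosome 18, with 8.40 and 6.75, and the second between the semaphorin genes SEMA3A and SEMA3D at chr7:84806043-84806178, with 6.35 and 6.75 and no peak elsewhere. In OCI-AML3 the first lay 329 kb from UTRN at chr6:144912587-144912914, with 6.49 and 7.26, and was open in all 4 MV4-11 libraries (4.91 to 7.77). The second lay between CDH10 and CDH9 at chr5:26417058-26417398, with 5.89 and 5.54.

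Where a region was called in all 4 libraries of a line, its strength in treated and control cells was compared with limma. None of 195 desert regions passed in MOLM13, none of 471 in MV4-11, none of 138 in OCI-AML3, and none of 67 for the mean over lines, as for all regions (0% passed in each fit). At an unadjusted p under 0.05 there were 17 in MOLM13 (8 higher, 9 lower), 47 in MV4-11 (16 higher, 31 lower), 10 in OCI-AML3 (5 of each) and 6 for the mean, or 8.72, 9.98, 7.25 and 8.96% of those tested, against 5.62, 6.58, 5.78 and 6.41% of all regions. The smallest adjusted p of a desert region was 0.878, 0.738, 0.819 and 0.682 in the 4 fits (limma).

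The lowest unadjusted p in MV4-11 belonged to a region between MAT2B and TENM2 at chr5:166562138-166562747, with folds of 4.21 and 5.95 in controls and 12.1 and 13.2 in treated cells (adjusted p = 0.738, limma). In MOLM13 it was 3.49 and 6.07 against 5.84 and 6.60, and in OCI-AML3 7.35 and 7.26 against 6.54 and 4.90, so OCI-AML3 libraries moved the other way and MOLM13 libraries overlapped. In MOLM13 a region between NEDD1 and TMPO at chr12:97778159-97778558 had 9.37 and 8.45 in controls and 5.19 and 5.28 in treated cells (adjusted p = 0.878, limma). In OCI-AML3 a region between ANKRD7 and KCND2, a potassium channel gene, at chr7:119175946-119176280 had 9.77 and 10.6 against 5.51 and 5.61, and one between GABRA2, a GABA receptor gene, and COX7B2 at chr4:46648082-46648595 had 4.38 and 3.96 against 6.16 and 9.62 (adjusted p = 0.819 for both, limma). These examples were picked by their low p, so the lack of overlap between their groups is part of that choice, and none passed.

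The most regions of a single stretch lay between AGA and TENM3 (chromosome 4, 38 regions over 782 kb of desert). MOLM13 libraries called 15, 15, 15 and 16 of them, MV4-11 25, 31, 25 and 29, and OCI-AML3 9, 8, 8 and 9, in the order control 1, control 2, treated 1, treated 2. No library of one line overlapped another line. As a percent of a library's called desert regions, this stretch took 3.65 ± 0.409% for MOLM13, 3.79 ± 0.427% for MV4-11 and 2.24 ± 0.462% for OCI-AML3 (SD, n = 4).

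The next stretch lay between FANCL, a Fanconi anaemia ubiquitin ligase gene, and the predicted gene LOC124906010 on chromosome 2, and held 33 regions over 494 kb. The nearest protein-coding gene with a full name was BCL11A, a repressor that acts in blood cells and silences fetal globin, 408 to 851 kb away. MOLM13 called 10, 11, 10 and 12 of these regions, MV4-11 19, 23, 18 and 23, and OCI-AML3 2, 7, 3 and 3. Its regions were seen in any library in 19 cases for MOLM13, 30 for MV4-11 and 8 for OCI-AML3, and none was open in all 12. As a percent of a library's called desert regions it took 2.57 ± 0.246% for MOLM13, 2.85 ± 0.280% for MV4-11 and 0.921 ± 0.367% for OCI-AML3. Both MLL1-rearranged lines were thus above every OCI-AML3 library.

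The stretch between UTRN and EPM2A (30 regions) took the largest percent in MOLM13, 3.41 ± 0.343% against 2.23 ± 0.304% in MV4-11 and 2.66 ± 0.359% in OCI-AML3. All peaks of chromosome 6, which holds it, had the same order, with 8.08 to 8.22%, 6.27 to 6.36% and 7.25 to 7.38%. The part of this in the percents was not tested. The stretch between the cadherin genes CDH10 and CDH9 (24 regions) took the smallest percent in MOLM13, where only 4 to 5 of its regions were called. It took 1.07 ± 0.143% for MOLM13, 1.53 ± 0.337% for MV4-11 and 2.48 ± 0.675% for OCI-AML3. The stretch between H3Y1, a histone variant gene, and CDH18 (23 regions) was called in 8 to 16 regions in OCI-AML3 and 13 to 17 in MV4-11. The others of the 8 were DNAJB9 to LRRN3 (23 regions; 2 to 5 called in MOLM13, 10 to 14 in MV4-11), KCNV1 to CSMD3 on chromosome 8 (23) and MAT2B to TENM2 (22). These percents were compared over 8 stretches and 3 line pairs (exact permutation test, 4 libraries against 4, two-sided). The smallest possible p of 0.0286 was reached in 9 of 24 comparisons, and 0 of 24 passed after adjustment (smallest adjusted p 0.0762). Other stretches were not tested. The rule of 2 lists chose the regions, so this test is not independent of it. AGA to TENM3 had 7 regions called in MV4-11 alone, 0 in MOLM13 alone and 0 in OCI-AML3 alone. Between FANCL and LOC124906010 these were 11, 2 and 1, and between CDH10 and CDH9 they were 4, 0 and 6.

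**Figure D5:**
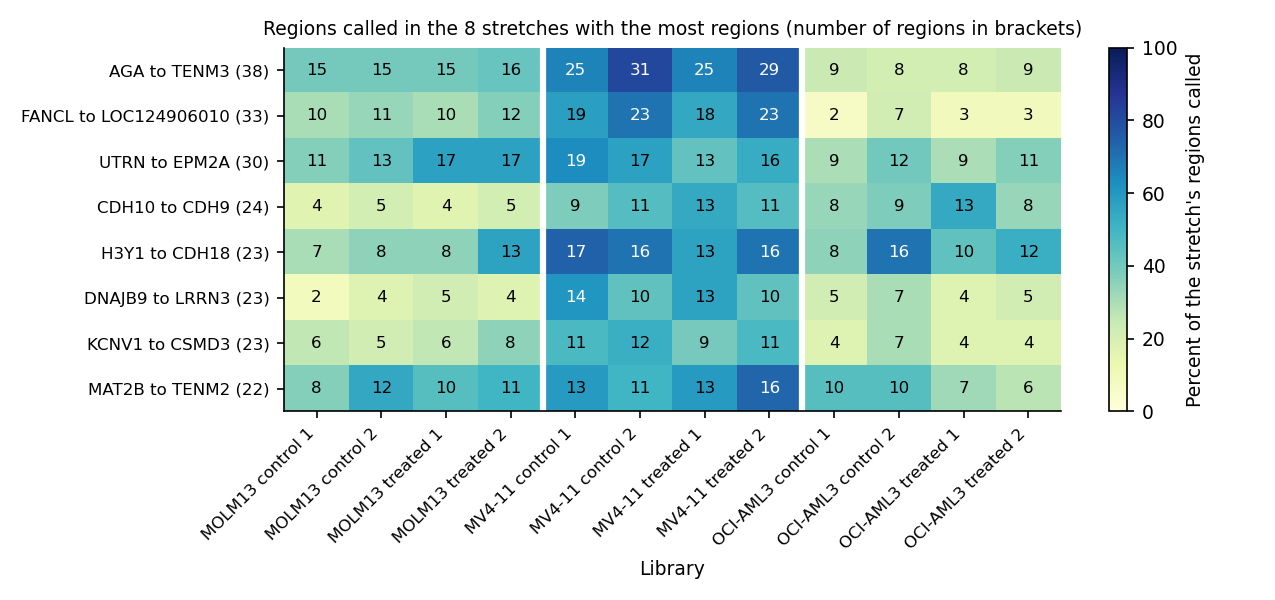
Number of regions called in each library (columns) in the 8 stretches with the most desert regions (rows, with the number of regions in brackets), coloured by percent of the stretch's regions called. The AGA to TENM3 row runs from 8 to 9 in OCI-AML3 to 25 to 31 in MV4-11.

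The stretches of 10 or more regions with the largest ratio between line means were chosen for that ratio, so their values are a description. Between SEMA3A and SEMA3D (11 regions) MOLM13 called 5 to 6, MV4-11 6 to 9 and OCI-AML3 0 to 3. Between GCFC2 and LRRTM4, a synaptic adhesion gene (14 regions), MOLM13 called 0 to 3, MV4-11 9 to 10 and OCI-AML3 3 to 6. Between the corepressor genes TLE4 and TLE1 (12 regions) MV4-11 called 8 to 11 and the other lines 1 to 3. Between ADGRL2, a latrophilin gene, and LOC107985043 (10 regions) MOLM13 called 1 to 2, MV4-11 3 to 9 and OCI-AML3 3 to 5.

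Neighbouring regions of a stretch were open in the same set of lines in 36.6% of 172 neighbours under 2 kb apart, in 26.6% of 244 at 2 to 10 kb, 24.5% of 388 at 10 to 50 kb and 24.1% of 249 farther apart. By the shares of each set of lines among all 1275 regions, 18.4% of pairs would match. Neighbours share their libraries and their place on the chromosome, and these shares were not tested.

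By the nearest protein-coding start site, 204 desert regions (16.0%) belonged to 31 of 102 adhesion and synaptic genes with a start site, against 3.18% of near intergenic regions. They included 25 regions nearest TENM2, 24 nearest CDH9, 22 nearest TENM3, 17 nearest GRIK2, a kainate receptor gene, and 12 nearest EPHA3. Such genes have long intergenic flanks, which the rule itself selects. Of these 204 regions 11 were open in all 12 libraries (5.39%, against 5.25% of all desert regions). In the lines, 13.7% were called in all 4 MOLM13 libraries, 40.2% in all 4 MV4-11 libraries and 11.8% in all 4 OCI-AML3 libraries, near the 15.3, 36.9 and 10.8% of all desert regions.

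Of 94 developmental transcription factor genes with a start site 10 were nearest to 37 desert regions (2.90%, against 2.13% of near intergenic regions). DACH1 had 18, at 301 to 592 kb. Of these a MOLM13 library called 9 to 10, an MV4-11 library 4 to 8 and an OCI-AML3 library 2 to 4. In all, MOLM13 had fewer peaks than MV4-11. Chromosome 13, which holds DACH1, had 3.45 to 3.59% of all peaks in MOLM13, 2.87 to 2.94% in MV4-11 and 2.02 to 2.27% in OCI-AML3. The part of this in the order of the lines was not tested. POU3F2 and POU4F1 had 2 regions each. None of these 37 regions was open in all 12 libraries.

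Of 20 MLL target genes JMJD1C, a histone demethylase gene, was nearest to 1 desert region, 824 kb away, which had a peak in both treated MV4-11 libraries and in no other. This is 0.0784% of desert regions, against 0.765% of near intergenic regions for the list. None of 36 haematopoietic factor genes was nearest to a desert region (0 of 1275, against 0.865% of near intergenic regions), but when predicted genes named LOC were passed over, BCL11A was nearest to the 33 regions described above, which is 2.59% of desert regions against 0.897% of near intergenic regions for the list. The other 19 MLL target genes, with MEIS1, HOXA9 and MYB among them, had no desert region nearest to them.

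The 5 regions farthest from any start site lay near centromeres. On chromosome 1, chr1:125183682-125183856 lay 3786 kb from SRGAP2-AS1 and had a peak in 9 libraries, with folds of 8.41 to 15.6 in MV4-11, 5.28 to 13.5 in OCI-AML3 and 5.19 in 1 MOLM13 library. A second, chr1:124959243-124959468, lay 3561 kb away and had a peak in the 4 MV4-11 libraries and in 1 of OCI-AML3. The other 3 lay 1075 to 1502 kb from EPHA3 on chromosome 3. The strongest of them, chr3:90609425-90609962, had folds of 8.41 to 10.1 in MV4-11, 6.74 to 9.90 in OCI-AML3 and 4.54 to 4.62 in treated MOLM13 cells, with no peak in MOLM13 controls. Leaving out all stretches of over 3 Mb took away 25 of the 1275 regions.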

How the data were processed

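Bulk ATAC-seq was done on 12 libraries from 6 groups of 2. According to the submitters' processing notes, reads were demultiplexed with bcl2fastq (2.17), trimmed with Trimmomatic (0.33) and aligned with Bowtie (1.1.2), and MACS2 (2.1.0) and deepTools are also named, with hg38 as build. The supplementary methods name another aligner. Whether read ends were shifted or duplicates removed is not given in the sources used here. Peaks were called in each library separately. For each peak the authors deposited a score (a scaled q), a ratio (fold enrichment of summit reads over local background), the −log10 of p and of q at the summit, and the offset of the summit in bp. The lowest −log10 q was 1.30. No value had been normalised between libraries, and sequencing totals are not analysed here, so intervals and limits of detection are not given.

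The 1173156 peaks on chromosomes 1 to 22 were merged (1 bp overlap), and 27277 others were not used. Start sites were those of 36921 protein-coding and lncRNA genes of RefSeq (GRCh38.p14), with the strand from its promoter table for 26246 genes and from GENCODE by symbol for 5121. Both ends of the 5554 genes without a strand counted as start sites. The plan had listed this as the alternative, and the other setting is given among the dependences. Summit reads were the whole number that met both fold and p within 0.001 (at least 99.99% of peaks). Tests were exact permutations in Python 3.11.15 and limma 3.58.1 in R 4.3.3, both checked on simulated data. Same-numbered libraries did not deviate together (correlations of 0.0348, 0.0205 and 0.00883 for the 3 lines), so replicate numbers were not used as pairs. Named regions were the 8 of highest median fold open in 12 libraries, the 3 open in 1 line only and the 2 lost and 2 gained per line with the highest lowest −log10 q, the 2 lowest and 2 highest by p in each limma fit, of which a selection is described, the 5 farthest from a start site, those beside the distance limit, the 8 stretches with the most regions and the 5 that differed most between lines. The members, lists and tests were chosen with earlier results of these data known. Sequences were not analysed here, since the genome at hand was of another build. A region and some genes that the rule names are not reported here.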

Additional observations from a re-analysis of the deposited data

Results flagged for a closer look

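In 66 sets of 4 libraries of a line, 5 held a library far from the other 3 by Dixon's criterion, and chance flags about 1 in 20 sets of continuous values. Where the other 3 share a whole number, any difference is flagged. The rate therefore does not hold for the summit reads, AGA to TENM3 and KCNV1 to CSMD3 sets below. In MV4-11 the median fold of desert peaks was 5.69 in treated library 2, the library with the most peaks, and 6.59 to 6.61 in the others. In MOLM13 the median number of summit reads was 7 in control 1 and 8 in the others. In the AGA to TENM3 stretch MOLM13 treated library 2 had 16 regions and the others 15. In the H3Y1 to CDH18 stretch the same library had 13 and the others 7 to 8. In the KCNV1 to CSMD3 stretch OCI-AML3 control 2 had 7 and the others 4.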

How the results depend on the processing

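Of the values that answer a comparison, 96 kept their direction and their side of the threshold (counts stayed within 1.5 times) over the alternatives, 46 moved, 21 no longer passed, 7 turned and 2 came to pass. The number of desert regions was 148 beyond 500 kb, 3225 with start sites of genes of known strand only, 671 at −log10 q of 5 or more, 328 away from all annotated genes and 4534 with a peak in 1 list or more. The share of peaks differed by −0.0105, −0.00587 and 0.00465 points beyond 500 kb for MOLM13 minus MV4-11, MOLM13 minus OCI-AML3 and MV4-11 minus OCI-AML3 (adjusted p = 0.2 for each, exact permutation). With a peak in 1 list or more, chosen after seeing the data, they were −0.0304, −0.360 and −0.330, so MV4-11 minus OCI-AML3 turned. MOLM13 minus OCI-AML3, −0.0315 at first, turned with known strands only (0.00760), at −log10 q of 5 (0.00500) and with 3 lists (0.0170), and was −0.0200 by covered bases and −0.0133 with 60000 peaks a library, and it passed in none of these. Desert minus near intergenic peaks beyond 500 kb gave 0.297 for fold, 0.267 for −log10 q, 2.18 points called again and −3.63 bp for width. The fold was −0.167 with known strands only and then passed (adjusted p = 0.0195, exact permutation), and −0.220 with a peak in 1 list or more (adjusted p = 0.0312, exact permutation). The share called again, −3.77 points with 2 lists, was −1.53 with 3 lists and −1.84 with 60000 peaks a library and no longer passed. Lost and gained regions beyond 500 kb numbered 3 and 7 (MOLM13), 6 and 5 (MV4-11) and 5 and 1 (OCI-AML3), and those of 1 line only 0, 17 and 2. At −log10 q of 5, MOLM13 had 4 lost, 30 gained and 0 of its own, MV4-11 16 gained, and OCI-AML3 21 lost, 8 gained and 5 of its own. Shares over all regions were not taken beyond 500 kb or at −log10 q of 5. These counts therefore do not set deserts apart from other regions. With 60000 peaks a library, a setting chosen after seeing the data that matches the number of peaks and not reads, MOLM13 had 28 gained, MV4-11 16 gained and 31 of its own, and OCI-AML3 26 lost and 20 of its own. The same setting also turned stretch differences to 0.482 (AGA to TENM3), 0.329 (FANCL) and −0.621 points (KCNV1 to CSMD3) for MOLM13 minus MV4-11 and to 0.108 (DNAJB9 to LRRN3) for MOLM13 minus OCI-AML3. On recovered summit reads, limma passed 21 and 26 regions for MOLM13 minus MV4-11 and MOLM13 minus OCI-AML3, with 20.1 and 29.5% of all regions. The cause was not tested for any of these.

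Leaving out each replicate number gave −0.114 to −0.0907, −0.0474 to −0.0156 and 0.0433 to 0.0982 points for the line pairs, −0.642 to −0.342 for −log10 q, −9.50 to −8.92 bp for width and −1.83 to −1.50 for reads, none of which passed (line pairs of 2 against 2 libraries cannot). Comparing 1 library with 1, lost regions numbered 103 to 106 (MOLM13), 108 to 185 (MV4-11) and 138 to 237 (OCI-AML3), and gained ones 188 to 191, 101 to 214 and 97 to 172. Shares over all regions were not taken here, so these counts do not set deserts apart from other regions. For limma, the median differences of the line pairs without a replicate are given with the comparison of lines above. With the replicate block, treated minus control was 0.0111 points (p = 0.219, exact permutation over 64 arrangements). Between lines, limma with the block passed 9, 8 and 13 desert regions, against 4.12, 8.46 and 12.8% of all regions. It passed 0 for treatment, so the block changed no call of a count by over 1.5 times. A fit within 1 line without a library, and a share called again without its partner library, could not be had. Sequencing totals were not analysed, so how far depth limits these counts was not tested.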
